A study of Mus musculus with 5 samples.

Results

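The genes described here encode the transcription factor AP-1 and a few other products of the immediate early response: the Fos family (Fos, Fosb, Fosl1 and Fosl2), the Jun family (Jun, Junb and Jund), the related factor gene Atf3, the zinc finger factor gene Egr1 and the phosphatase gene Dusp1. They were taken by gene name from the table of each library, and all 10 were found among the 46078 genes listed there. RNA-seq was done on neural stem and precursor cells (labelled NPC) grown from the subventricular zone, which lines the lateral ventricles of the mouse forebrain and keeps stem cells into adult life. The cells came from C57BL/6 mice that the labels give as female, aged 5 to 8 weeks and carrying no mutation. The methods of the study name an older age, define a replicate as a single animal, and list the growth factors EGF and basic FGF in the medium. Every culture was kept on plates coated with poly-D-lysine and received only PBS, as a sham exposure. RNA was taken 1 h later in 2 libraries (replicates 1 and 2) and 8 h later in 3 libraries (replicates 13, 14 and 15). The comparison is therefore between times after addition of PBS, and no library without PBS was analysed here.

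A signal such as a growth factor, stress or handling switches on immediate early genes from factors already present in the cell, with no need for new protein. Fos and Jun proteins pair through leucine zippers to form AP-1, which binds DNA. Jun proteins can also pair among themselves, whereas Fos proteins need a partner from another family. The transcripts of most of these genes are short-lived, and feedback proteins, Dusp1 among them, switch off the kinases that drive them.

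The labels carry library identifiers in 2 number series, and no source used here says what the series stand for. Series 1 holds both 1 h libraries and 8 h replicate 14, and series 2 holds 8 h replicates 13 and 15. The same split appeared in the sex-linked genes, because the 3 libraries of series 1 went against the label female. Xist, expressed from the inactive X chromosome, stood at 0.03 to 0.06 TPM in them and at 165.3 and 199.7 TPM in series 2, while the Y-linked Ddx3y, Eif2s3y, Kdm5d and Uty were on in series 1 and at or near 0 in series 2. Leaving those 3 libraries out leaves no 1 h library, so time comparisons of the members, and of the pathway genes named for their fold change where it differs by over 1.5 times, are also given within series 1. TPM, the unit of the levels below, is a gene's share of all transcripts corrected for length. The tables list 13681 to 13967 genes at 1 TPM or more per library, and the 9 neural stem and precursor markers, such as Nes, Sox2 and Fabp7, all averaged above that level (summed 11256 to 14437 TPM). All 7 microglia markers stayed below it, with sums of 0.48 to 1.49 TPM and Aif1, Tmem119 and C1qa listed at 0 throughout. In bulk samples, fewer cells of a type and less RNA per cell cannot be told apart.

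The stretches of DNA before the start sites of 4 members are shown first, because motifs for CREB, ATF and AP-1 factors in such places are how these genes are known to respond to signals and to each other. RefSeq windows (GRCm38.p6, 250 bases before the start) were found for 8 of 10 members, not for Egr1 and Fosl1. The motifs searched on both strands were the cyclic AMP response element or CRE (TGACGTCA), its core (TGACGT, which every CRE contains), the AP-1 site (TGACTCA), the Jun-type site (TGACATCA), the EGR site (GCGGGGGCG) and the CArG box bound by SRF. The TATA box (TATAAA) was searched on the strand of the gene. Capitals mark the matches, each sequence reads 5′ to 3′ on the gene's strand, and for Dusp1 only the bases outside annotated exons are shown:
Fos, chr12:85473640-85473889, plus strand: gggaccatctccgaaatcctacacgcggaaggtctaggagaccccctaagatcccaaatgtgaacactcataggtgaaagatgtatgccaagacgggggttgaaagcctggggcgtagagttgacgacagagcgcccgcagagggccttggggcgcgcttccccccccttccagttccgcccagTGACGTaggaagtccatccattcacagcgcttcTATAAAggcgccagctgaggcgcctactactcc
Jun, chr4:95052223-95052472, minus strand: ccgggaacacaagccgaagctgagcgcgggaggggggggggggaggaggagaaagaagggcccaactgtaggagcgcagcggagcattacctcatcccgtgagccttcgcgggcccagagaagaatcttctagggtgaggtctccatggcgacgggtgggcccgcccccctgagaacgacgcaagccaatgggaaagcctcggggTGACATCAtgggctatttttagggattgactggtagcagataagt
Junb, chr8:84978749-84978998, minus strand: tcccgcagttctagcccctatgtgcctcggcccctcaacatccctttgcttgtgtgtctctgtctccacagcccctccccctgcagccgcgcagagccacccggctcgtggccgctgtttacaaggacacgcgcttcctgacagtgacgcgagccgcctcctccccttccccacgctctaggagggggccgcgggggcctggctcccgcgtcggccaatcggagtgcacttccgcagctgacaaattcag
Dusp1, chr17:26508520-26508722, minus strand: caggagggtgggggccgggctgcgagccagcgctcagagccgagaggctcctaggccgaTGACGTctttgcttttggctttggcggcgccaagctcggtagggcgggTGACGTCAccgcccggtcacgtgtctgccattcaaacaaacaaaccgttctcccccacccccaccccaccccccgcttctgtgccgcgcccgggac

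In the Fos window the CRE core lay 66 to 61 bases before the start and the TATA box 33 to 28 bases before it. Jun held the Jun-type site at 45 to 38 bases. Dusp1 had the only full CRE in the 8 windows, at 143 to 136 bases, and a further core at 191 to 186 bases. The windows of Fosb and Fosl2 each held an EGR site, at 50 to 42 and 79 to 71 bases, and that of Atf3 a CRE core 8 to 3 bases before the start, on the other strand. Those of Junb and Jund had no match to these letters. Among all 32851 RefSeq windows of this length, 1.55% held a CRE, 6.47% its core, 4.46% the AP-1 site, 2.93% the Jun-type site, 2.57% the EGR site, 1.47% a CArG box and 7.59% a TATA box. The map of matches by distance from the start shows how few there were.

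**Figure D1:**
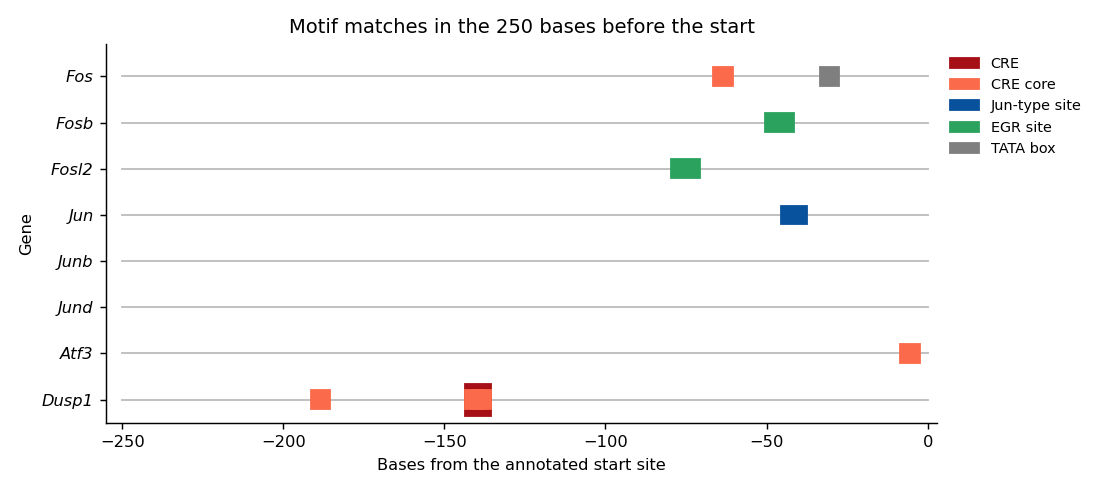
Positions of motif matches (coloured boxes) on grey lines that stand for the 250 bases before the annotated start of 8 genes, with the distance from the start in bases on the x axis. Dusp1 carries the CRE at 143 to 136 bases, Fos a CRE core at 66 to 61 bases and a TATA box at 33 to 28 bases, and Junb and Jund carry no box.

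All 10 genes were detected in all 5 libraries, over a range from Fosb below 1.4 TPM to Egr1 and Jun above 150 TPM. Ordered by their mean TPM ± SD over the 5 libraries, they were Jun (126.2 ± 18.3), Egr1 (90.0 ± 56.3), Fos (43.1 ± 19.3), Jund (42.6 ± 18.4), Dusp1 (26.7 ± 4.59), Fosl2 (9.20 ± 1.40), Junb (8.61 ± 4.87), Fosl1 (7.78 ± 3.38), Atf3 (4.46 ± 2.18) and Fosb (0.88 ± 0.28). Most neighbours in this order had overlapping ranges. Only between Dusp1 and Fosl2, and between Atf3 and Fosb, did the lowest library of the one lie above the highest library of the other. Jun stood higher than 90.1% of the genes with a mean of at least 1 TPM, and Egr1 higher than 85.7% of them. Jun ranked 1 among the members in every library except 8 h replicate 15, where Egr1 did, and Fosb ranked 10 in all of them. The range was widest for Egr1, whose highest library was 3.89 times its lowest, and narrowest for Jun (1.44 times) and Fosl2 (1.47 times).

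**Figure D2:**
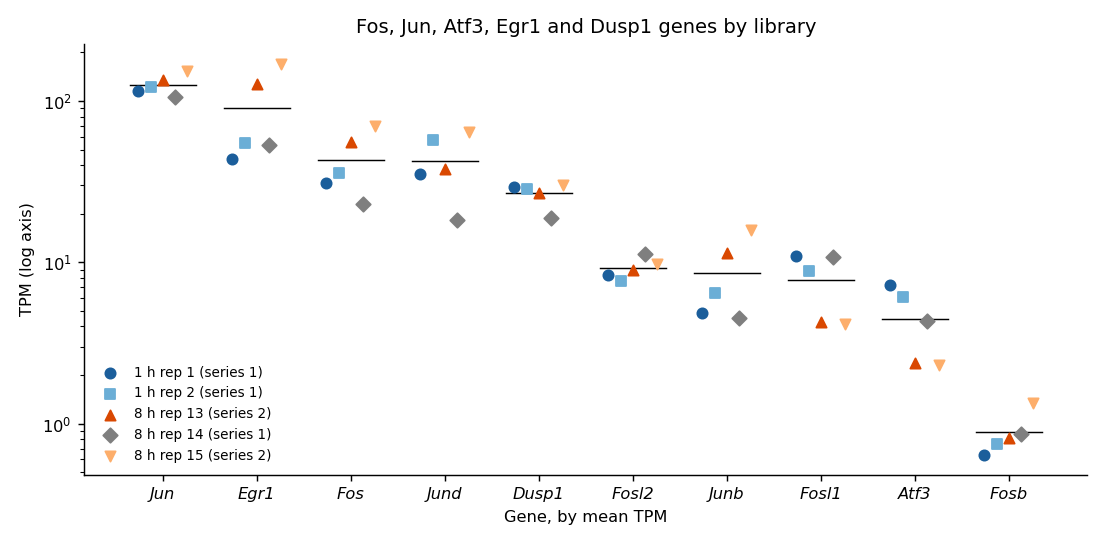
TPM of the 10 genes on a log axis in each of the 5 libraries (symbols, coloured by library), with the mean as a horizontal line and the genes ordered by it. For Fos, Egr1 and Junb both 8 h libraries of series 2 (orange triangles) lie above the other 3, and for Fosl1 and Atf3 they lie below.

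No member passed the test between 1 h and 8 h in the TPM tables. None passed in the count columns as named either, but their 8 h columns do not match those tables. In the TPM tables a call needed an adjusted p no higher than 0.05 together with a log2 fold change beyond 1 in either direction (limma on log2(TPM + 1), 13870 genes with a mean of at least 1 TPM). By this rule 0 of the 9 members tested were called, against 0.0433% of all genes tested (6 genes). Atf3 was the only member with an unadjusted p under 0.05, which 12.3% of all genes had. The levels at 1 h and 8 h did not overlap for 3 of 10 members, Fosb and Fosl2 being higher and Atf3 lower in every 8 h library, against 33.1% of all genes tested (23.7% higher and 9.43% lower). That share is close to the background. The fold changes of the 9 members had a median of 0.13 on the log2 scale, beside 0.10 over all genes. Within series 1, where replicate 14 is the only 8 h library, the median was -0.27, beside 0.01 over all genes. There 6 of the 9 were lower and 3 higher at 8 h.

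Fos (chr12:85473890-85477273), the inducible founder of its family, was at 31.0 and 35.7 TPM at 1 h and at 56.0, 22.9 and 70.0 TPM at 8 h (replicates 13, 14 and 15). The lowest and the highest level were thus both found at 8 h, and the groups overlapped. The means were 33.3 ± 3.38 TPM (SD, n = 2) and 49.6 ± 24.2 TPM (SD, n = 3). In limma this was 0.42 ± 0.45 (SE) on the log2 scale, with an adjusted p of 0.651. Fosl1 (chr19:5447703-5455945), which encodes Fra-1, ran the other way, with 10.9 and 8.87 TPM at 1 h and 4.24, 10.8 and 4.13 TPM at 8 h. Its replicate 14 again resembled the 1 h libraries, and the fold change of -0.67 ± 0.39 had an adjusted p of 0.474.

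Fosl2, which encodes Fra-2, varied least among the Fos genes, with 8.29 and 7.67 TPM at 1 h and 8.99, 11.2 and 9.80 TPM at 8 h. Every 8 h library lay above both 1 h libraries, by a fold change of 0.29 ± 0.15 on the log2 scale (adjusted p = 0.442). Fosb was hardly expressed, at 0.64 and 0.75 TPM at 1 h and 0.81, 0.86 and 1.35 TPM at 8 h. Its mean lay below the 1 TPM needed for the test, and its deposited coverage was only 1.57 to 3.21 reads per base, against 62.1 to 135.7 for Fos. With the filter lowered to a mean of 0.1 TPM, its fold change was 0.24 ± 0.17 (adjusted p = 0.571, limma).

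Jun, whose protein is the main target of the JNK kinases, was at 115.5 and 121.3 TPM at 1 h and at 135.4, 106.1 and 153.0 TPM at 8 h. Replicate 14 was the lowest of all and the other two 8 h libraries were the highest, so the groups overlapped, and the fold change was 0.13 ± 0.16 (adjusted p = 0.693). Junb, a weaker activator than Jun in many settings, had the same order of 8 h libraries at a far lower level: 4.88 and 6.48 TPM at 1 h and 11.4, 4.49 and 15.8 TPM at 8 h. Its fold change was 0.66 ± 0.47 (adjusted p = 0.528). Jund, usually the most constant of the Jun genes, was not so here, with 35.1 and 57.4 TPM at 1 h and 38.1, 18.3 and 64.2 TPM at 8 h. The 1 h libraries already differed, and its fold change of -0.33 ± 0.51 (adjusted p = 0.761) was smaller than its error.

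Egr1, a zinc finger activator induced through SRF and its partners, was the member with the largest fold change between the times over all libraries on log2(TPM + 1). Atf3 took that place with pseudocount 0.1, with median-ratio scaling or without 8 h replicate 15 (-0.84 against 0.74 for Egr1). Within series 1, Jund did. Egr1 was at 43.8 and 54.7 TPM at 1 h and at 127.8, 53.0 and 170.6 TPM at 8 h, with means of 49.2 ± 7.68 and 117.2 ± 59.5 TPM. Replicate 14 lay between the 1 h libraries, and the log2 fold change of 1.09 ± 0.47 did not pass the test (adjusted p = 0.409). Atf3 (chr1:191170296-191218039) encodes a stress-induced factor that can pair with Jun proteins and often represses. It was at 7.20 and 6.06 TPM at 1 h and at 2.38, 4.32 and 2.32 TPM at 8 h. All 8 h libraries lay below both 1 h libraries, with a fold change of -0.96 ± 0.26, an unadjusted p of 0.00959 and an adjusted p of 0.309 (limma). Dusp1, whose product dephosphorylates p38, JNK and ERK, was at 29.4 and 28.3 TPM at 1 h and 26.8, 18.9 and 30.3 TPM at 8 h. Its lowest level (replicate 14) and its highest were both found at 8 h. Its fold change was -0.21 ± 0.21 (adjusted p = 0.626).

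Calls were made among the members between the identifier series at 8 h, though not between the times. At 8 h, Fos, Egr1 and Junb were higher and Fosl1 was lower in replicates 13 and 15 (series 2) than in replicate 14 (series 1). These 4 of 9 members were called in limma with time and series as terms, against 4.02% of all genes tested (3.33% higher and 0.692% lower). The difference on the log2 scale was 1.41 ± 0.17 for Fos (adjusted p = 0.0119), 1.46 ± 0.21 for Egr1 (adjusted p = 0.0169) and 1.40 ± 0.25 for Junb (adjusted p = 0.0288). That of Fosl1 was -1.18 ± 0.18 (adjusted p = 0.0183). Over all genes the median difference was 0.11. Over all 5 libraries, Fos, Jun, Junb and Egr1 were higher and Fosl1 and Atf3 were lower in both libraries of series 2 than in each of series 1. These are 6 of 10 members, a share close to the 53.3% of all genes tested (39.8% higher and 13.5% lower).

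The other members were not called. Jund had a difference as large as that of Junb but less even, 1.39 ± 0.38 (adjusted p = 0.0812). Dusp1 differed by 0.57 ± 0.13 (adjusted p = 0.0562), Jun by 0.44 ± 0.12 (adjusted p = 0.0804), Atf3 by -0.67 ± 0.19 (adjusted p = 0.0859) and Fosl2 by -0.24 ± 0.15 (adjusted p = 0.375). Replicate 14 is the only 8 h library of series 1, and it was assumed to vary like the others. The calls need both libraries of series 2, since without replicate 13 or without replicate 15 no member was called (adjusted p of 0.0537 and 0.0720 for Fos), and 63 or 23 genes were called in place of 558. Series also divided the libraries as the sex-linked genes did, so the 2 cannot be told apart.

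Proliferation markers were divided in the same way. All 8 of them (Mki67, Top2a, Ccnb1, Ccna2, Cdk1, Pcna, Mcm2 and Birc5) were higher in both libraries of series 2 than in each of series 1. Their sums were 1571 and 1694 TPM against 765 to 846 TPM, and 5 of the 8 were called. Of all genes tested, 39.8% were higher in both libraries of series 2, and 4.02% were called (3.33% higher and 0.692% lower). The neural stem and precursor markers summed to 13347 and 14437 TPM in series 2 and 11256 to 11789 TPM in series 1, with 0 of 9 called. Fabp7 was the largest part of these sums, averaging 9678 TPM in series 2 and 7851 TPM in series 1. In the fitted difference at 8 h, 7 of the 9 were higher in series 2, while Nes (-0.18) and Sox2 (-0.15) were lower. Neuron markers summed to 39.8 and 44.4 TPM in series 2 and 54.5 to 60.1 TPM in series 1 (0 of 4 called). The lower sum came from Tubb3, which averaged 19.1 TPM in series 2 and 40.0 TPM in series 1. Its log2 difference at 8 h, -0.93, was just short of the fold limit. Snap25 (14.4 and 10.6 TPM) and Dcx (6.80 and 5.50 TPM) averaged higher in series 2, and Rbfox3 was level (1.79 and 1.78 TPM). Sums of oligodendrocyte lineage markers overlapped, at 2121 and 2442 against 1600 to 2236 TPM, and 1 of 6 tested was called, the myelin gene Mbp, lower in series 2 (-1.48 ± 0.22, adjusted p = 0.0172). Endothelial markers summed to 10.02 to 13.6 TPM and ependymal markers to 16.3 to 27.5 TPM over all libraries, each with 1 gene tested and 0 called. Their part in the differences of Fos, Egr1, Junb and Fosl1 was not tested.

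With series as a term, the time comparison is that of replicate 14 with the 1 h libraries, and it uses the same replicate 14 as the series difference. It called 0 of 9 members (0.137% of all genes tested), and 5 of the 9 had an unadjusted p under 0.05, against 9.06% of all genes. The fold changes were then -0.52 ± 0.17 for Fos (adjusted p = 0.466), -1.25 ± 0.38 for Jund (adjusted p = 0.432), -0.59 ± 0.13 for Dusp1 (adjusted p = 0.348), -0.52 ± 0.19 for Atf3 (adjusted p = 0.502) and 0.45 ± 0.15 for Fosl2 (adjusted p = 0.466). Egr1, at 0.11 ± 0.21, and Fosl1, at 0.12 ± 0.18, lay near 0 within series 1. The sign for Fos, Jun, Junb and Fosl1 was thus opposite to that over all libraries. The fit to the 3 libraries of series 1 alone gave these same fold changes and also called 0 of 9 members (0.0505% of all genes).

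Without replicate 14, time and series divide the libraries in the same way. In that fit 4.1% of all genes tested (568) were called, and so were Egr1 (1.57, adjusted p = 0.00519), Junb (1.12, adjusted p = 0.0181), Fosl1 (-1.06, adjusted p = 0.00972) and Atf3 (-1.18, adjusted p = 0.00838). Fos had an adjusted p of 0.0134 and a fold change of 0.89, below the limit. The calls between times were therefore decided by that library.

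**Figure D3:**
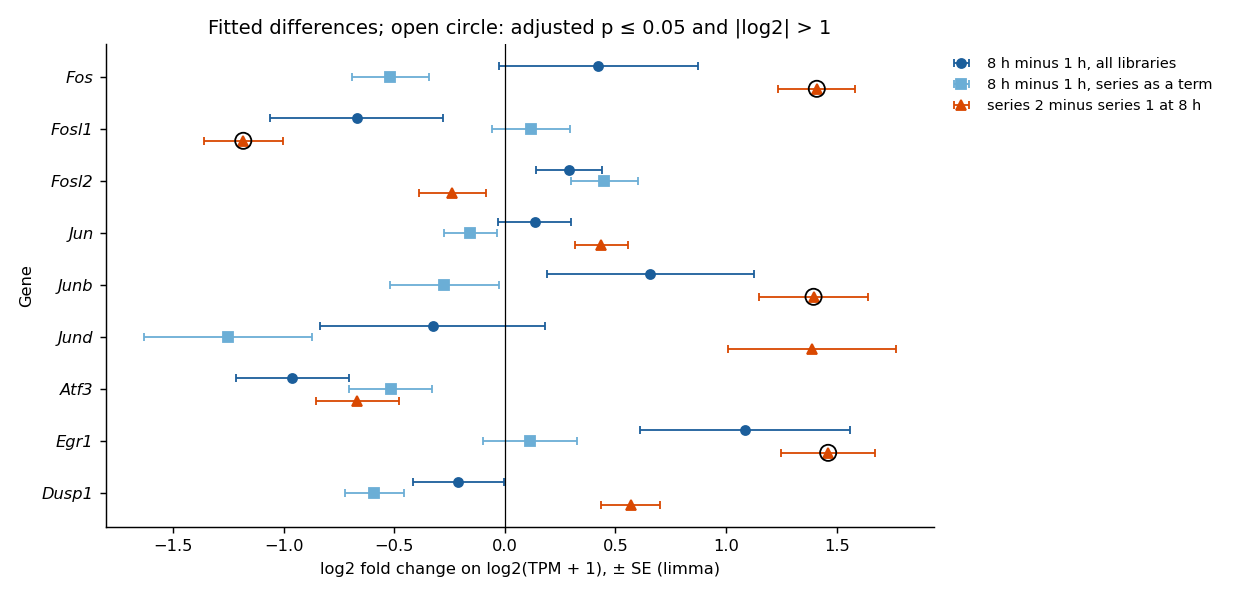
Fitted log2 fold changes on log2(TPM + 1) (x axis) with their SE for 9 genes (y axis): 8 h minus 1 h over all libraries (circles), 8 h minus 1 h with identifier series as a term (squares) and series 2 minus series 1 at 8 h (triangles). Open circles mark calls, which are only the series differences of Fos (1.41), Egr1 (1.46), Junb (1.40) and Fosl1 (-1.18).

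The summed level of the Fos and Jun genes was 206.3 and 238.1 TPM at 1 h and 254.9, 174.7 and 318.3 TPM at 8 h (replicates 13, 14 and 15). The Fos family made up 22.3% to 27.5% of that sum in every library and Jun alone 48.1% (replicate 15) to 60.7% (replicate 14). Within the Fos family the makeup varied far more. Fos held 61.0% and 67.4% of its family's transcripts at 1 h and 79.9%, 50.1% and 82.1% at 8 h. Fosl1 held 21.5% and 16.7% at 1 h and 6.05%, 23.5% and 4.85% at 8 h. The ratio of Fos to Fosl1 transcripts was accordingly 2.84 and 4.03 at 1 h, 2.13 in replicate 14, and 13.2 and 16.9 in replicates 13 and 15. Among the Jun genes, the ratio of Jun to Junb was 23.7 and 18.7 at 1 h, 23.6 in replicate 14, and 11.9 and 9.68 in replicates 13 and 15. In both ratios the libraries parted by series and overlapped between times.

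**Figure D4:**
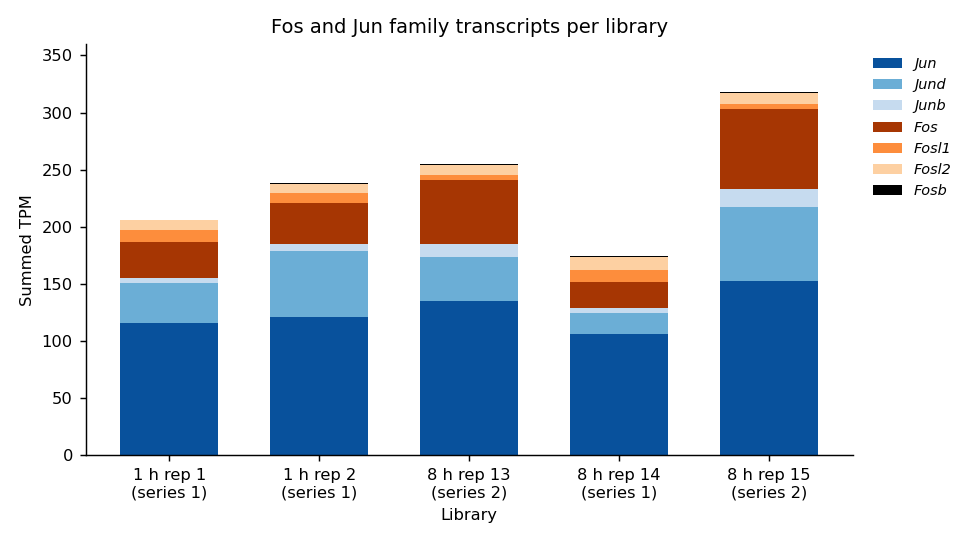
Summed TPM (y axis) of the Jun genes (blue) and Fos genes (orange to black), stacked for each of the 5 libraries on the x axis. The sum runs from 174.7 TPM in 8 h replicate 14 to 318.3 TPM in 8 h replicate 15, Jun is the largest block in each bar, and the Fosl1 block is thinnest in the libraries of series 2.

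Among the kinases and factors that act upstream, no call was made. Of 20 genes for ERK, JNK, p38 and SRF inputs, all were tested and 0 were called between the times or between the series (limma), with medians of -0.08 for time and 0.08 for series on the log2 scale (0.10 and 0.11 over all genes). Rps6ka3, an ERK-activated kinase gene, was the only one with an unadjusted p under 0.05 between the times (-0.42 ± 0.16, adjusted p = 0.396, and -0.15 ± 0.13 with an adjusted p of 0.789 within series 1). Mapk3, which encodes ERK1, and Elk3, an SRF partner, were higher in series 2 at 8 h at an adjusted p of 0.0487 and 0.0402, by 0.53 and 0.55, below the fold limit.

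The other immediate early genes were split in direction. Of 33 listed, 30 were tested and 0 were called between 1 h and 8 h, with a median of 0.08 (0.10 over all genes). At an unadjusted p under 0.05 in limma, 6 were higher and 5 lower (9.52% and 2.82% of all genes tested). Within series 1 the median was -0.14 (0.01 over all genes), with 9 genes higher and 21 lower in replicate 14. Klf10, a TGF-beta-inducible repressor gene, had the largest difference of those averaging at least 5 TPM, at 29.6 and 30.7 TPM at 1 h and 99.9, 66.9 and 86.4 TPM at 8 h (1.43 ± 0.18, adjusted p = 0.192). Its groups did not overlap, and unlike Fos it was higher than at 1 h in replicate 14 as well. Ier3, a survival gene, followed at 9.92 and 10.1 TPM and then 33.8, 16.1 and 40.0 TPM (1.40 ± 0.37, adjusted p = 0.309), and within series 1 its fold change was 0.63 ± 0.14 (adjusted p = 0.553). On the other side stood Cyr61, a secreted matrix protein gene and target of YAP (-1.09 ± 0.26, adjusted p = 0.296), Sgk1, a kinase gene (-1.03 ± 0.31, adjusted p = 0.341), and Klf4 (-0.94 ± 0.19, adjusted p = 0.262), all 3 lower in every 8 h library. Within series 1 these were -0.60 ± 0.14 for Cyr61 and -0.49 ± 0.24 for Sgk1 (adjusted p of 0.553 and 0.687). The most abundant genes of the list were Rhob (97.6 TPM on average), Klf6 (95.2 TPM) and Btg2 (91.4 TPM).

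Between the series at 8 h, 3 of the 30 were called, against 4.02% of all genes, and all were higher in series 2 (3.33% of all genes): Egr4 (1.59 ± 0.35, adjusted p = 0.0492), Ier2 (1.26 ± 0.19, adjusted p = 0.0176) and Ier3 (1.15 ± 0.15, adjusted p = 0.0132). The median over the list was 0.12, close to the 0.11 of all genes. Cyr61 had a difference of -0.74 ± 0.16 (adjusted p = 0.0478), below the fold limit.

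Genes for feedback phosphatases and inhibitors had a median of 0.27 between the times over all libraries and of 0.14 within series 1 (0.10 and 0.01 over all genes). Of the 14 tested 0 were called, and 6 had an unadjusted p under 0.05, all higher at 8 h, against 9.52% of all genes. With series as a term there were 4 such genes, against 691 of all 13870 genes tested. Nab2, a corepressor of Egr1, was at 37.3 and 47.0 TPM at 1 h and 105.3, 71.9 and 98.3 TPM at 8 h (1.10 ± 0.20, adjusted p = 0.254). The 8 h libraries were all above those of 1 h, replicate 14 in between. Spry4 (0.95 ± 0.18, adjusted p = 0.262) and Spry1 (0.71 ± 0.20, adjusted p = 0.315), which encode inhibitors of receptor tyrosine kinase signalling, had the same order. Within series 1 the fold change was 0.61 ± 0.12 for Spry4 and 0.34 ± 0.13 for Spry1 (adjusted p of 0.515 and 0.650). Spry2 and Dusp6 were the most abundant, at 194.2 and 181.4 TPM on average. Between the series, 0 of 14 were called, and Spry4 (0.51, adjusted p = 0.0412) and Spry1 (0.56, adjusted p = 0.0462) passed the adjusted p but not the fold limit.

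Of 16 genes that AP-1 is reported to regulate, 11 were tested, and 0 were called between the times (median 0.20). Ccnd1, the cyclin D1 gene, was at 1191 and 1189 TPM at 1 h and at 1915, 1387 and 1862 TPM at 8 h (0.52 ± 0.16, adjusted p = 0.365, and 0.22 ± 0.08 with an adjusted p of 0.641 within series 1). Between the series at 8 h, 2 of the 11 were called, against 4.02% of all genes, with a median of 0.27 (0.11 over all genes). Spp1, which encodes osteopontin, was higher in series 2 (1.37 ± 0.14, adjusted p = 0.00728), at 89.1 and 80.3 TPM in series 2 and 24.3 to 32.1 TPM in series 1. Plaur, the urokinase receptor gene, was lower (-1.08 ± 0.22, adjusted p = 0.0397), at 4.29 and 4.52 TPM against 6.30 to 10.4 TPM. Cd44, also lower in both libraries of series 2, was not called (-0.60 ± 0.19, adjusted p = 0.114).

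Of the genes for bZIP relatives and dimer partners, 0 of 11 tested were called between the times or the series, with a median of 0.09 for time and 0.29 for series. Mafg (51.2 TPM on average), Atf7 (44.8 TPM) and Atf2 (40.3 TPM) were the most abundant, and Batf and Batf2 were listed at 0 in all libraries. Mafk, a small Maf partner gene, was lower in every 8 h library, at 7.83 and 7.45 TPM at 1 h and 3.35, 3.14 and 3.94 TPM at 8 h (-0.95 ± 0.16, adjusted p = 0.240). Here replicate 14 was the lowest of the 3, unlike for Atf3.

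**Figure D5:**
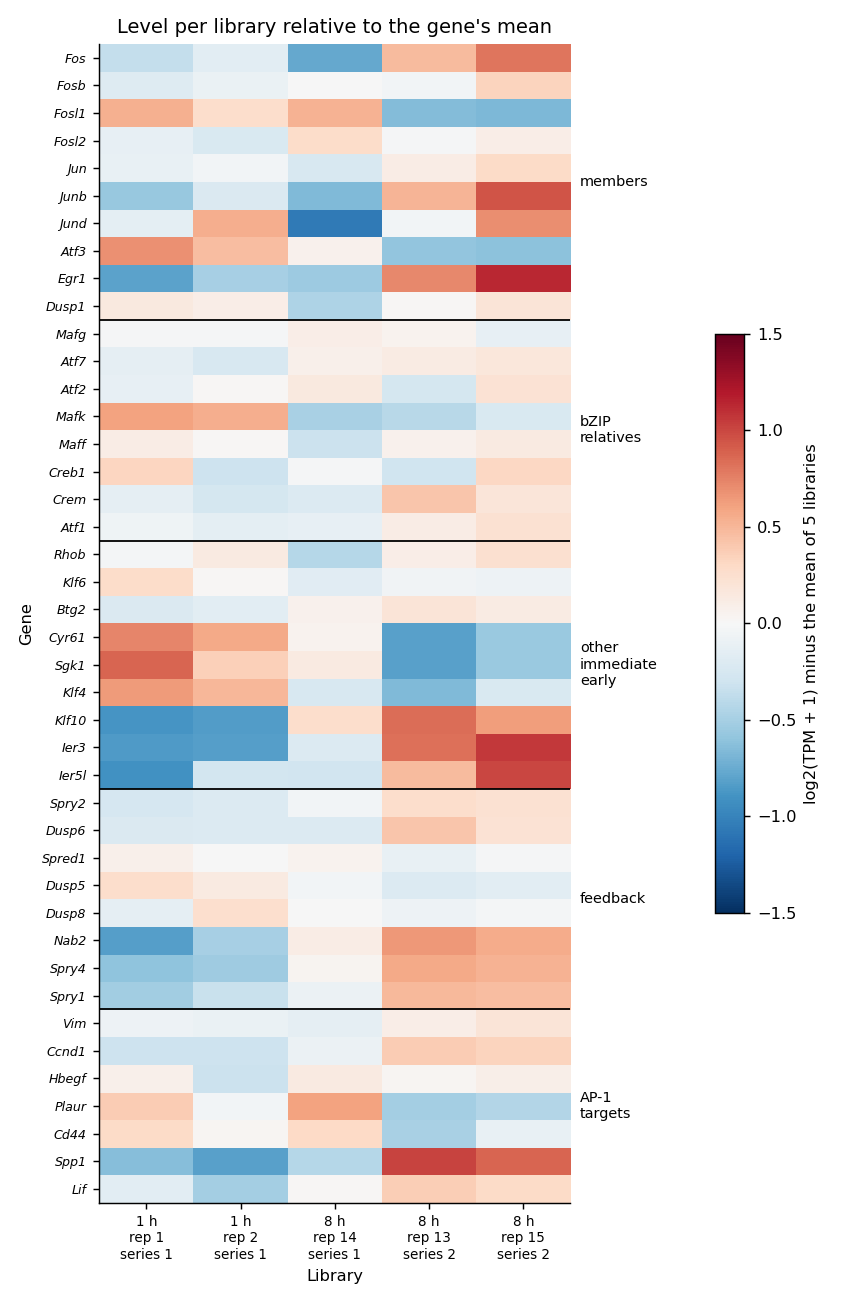
Each cell gives log2(TPM + 1) of a gene (rows, grouped by list) in a library (columns) minus the gene's mean over the 5 libraries, blue for lower and red for higher. Fos, Junb and Egr1 are red only in the 8 h libraries of series 2, whereas Klf10 and Nab2 are blue in both 1 h libraries and red in all 3 at 8 h.

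The pattern of Fos over the 5 libraries was shared by many genes. By Pearson's r of log2(TPM + 1), Acot1 (0.999), Mmd2 (0.999) and Kcnj10 (0.998) were most like it, and 14.8% of the 1761 genes searched (mean of at least 10 TPM and SD of at least 0.3) had an r above 0.95. Dtx1 (0.995), Acot2 (0.995) and Gas1 (0.994) were most like Jun, and 7.83% of genes passed the same r. Slc30a1 (0.993), Rlf (0.981) and Ube2v1 (0.978) were most like Dusp1, for which only 0.738% did. All 3 of these share its lowest level in replicate 14, where Rlf was at 5.68 TPM against 18.9 to 20.9 TPM elsewhere. Each r rests on 5 points that share libraries, depth and series.

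The deposited count table lists 6 of the 10 members (Fos, Fosb, Fosl1, Fosl2, Atf3 and Dusp1), and its column totals are 13988166 to 18572154. The columns named for 8 h libraries do not carry the levels of the tables of the same name. For this match, each gene's offset between counts and TPM was taken from the 1 h libraries. The 1 h columns were assumed to be rightly named and were not themselves checked. Of 6860 genes, 79.07% in the column named replicate 13 matched the table of replicate 14 within 0.1 on the log2 scale, and 25.73% its own table, while the column named replicate 15 matched the table of replicate 13 to 79.07% and its own to 42.23%. The column named replicate 14 matched no table to more than 41.34%, which was that of 1 h replicate 2, and its own to 26.44%. The counts therefore test the columns as named, and the TPM values above do not depend on them.

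Fos had 608 and 843 counts at 1 h, and 592, 857 and 1307 counts in the columns named 8 h replicates 13, 14 and 15. Dusp1 had 676 and 796 counts, and then 568, 498 and 760 counts. For Fosb there were 24 and 35 counts at 1 h and 42, 105 and 39 counts at 8 h, where the 105 stood alone. The edgeR quasi-likelihood test called 0 of 7590 genes (0% of all tested, and 2.62% with an unadjusted p under 0.05), DESeq2 also 0 (2.99% with an unadjusted p under 0.05), and so none of the 6 members. Dusp1 was the only member with an unadjusted p under 0.05 in edgeR (-0.46 ± 0.14, adjusted p = 0.966). The log2 fold changes of the others were 0.97 ± 0.65 for Fosb, 0.39 ± 0.19 for Fosl2, 0.17 ± 0.31 for Fos, -0.18 ± 0.62 for Atf3 and -0.01 ± 0.54 for Fosl1. The lower level of Atf3 in all 8 h TPM tables was not seen here, since the column named replicate 14 had 235 counts against 142 and 144 at 1 h. That column did not match the table of replicate 14, so it cannot test the level of Atf3 in that library.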

How the data were processed

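Libraries were stranded, poly-A selected and read from both ends. The authors aligned reads to GRCm38 with STAR through nf-core/rnaseq and counted them with featureCounts; the deposited count table is unnormalized and holds 7599 genes. Per library the authors also deposited TPM, FPKM and mean per-base coverage per gene, and no source used here names the tool. Rows of a gene were summed. Depth beyond the partial count totals is unknown. No other column of values was left (0), and 0 rows lacked a gene name.

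TPM was tested with limma 3.58.1 (R 4.3.3; intensity trend, log2(TPM + 1), mean TPM of at least 1) and counts with edgeR 4.0.16 (quasi-likelihood, TMM, filterByExpr), with Benjamini-Hochberg adjustment. Fold changes on log2(TPM + 1) understate those of low genes. DESeq2 1.42.0 was run with alpha 0.1. Calls required an adjusted p no higher than 0.05 and a log2 fold change beyond 1 in either direction. The fits were tested on simulated data with known fold changes. For TPM the simulated spread of each gene was capped at the median over genes, so that test does not cover noisier genes. Standard errors follow ±, unless SD is given.

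Alternatives were other scalings, pseudocount 0.1, other filters, FPKM, no trend, identifier series as a term, series 1 alone and leaving out libraries. The series difference at 8 h and its alternatives were added after seeing the data. The members and lists were chosen with earlier results of these data known. Named were all members and, per pathway list, called genes, the 3 most abundant by TPM, and at most 3 per direction by size of fold change at a mean TPM of at least 5. For Fos, Jun and Dusp1 the 3 most alike genes were named, excluding symbols of the Gm and Rik kind. Mapk3, Egr4 and Ier2 were named after their values were seen. Not every gene that this rule names is reported here.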

Additional observations from a re-analysis of the deposited data

How the results depend on the processing

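No paired analysis was possible because the groups share no replicate number. By TPM, 6 genes were called between the times, 19 with series as a term, 0 with no filter and 0 to 568 with 1 library left out (568 without 8 h replicate 14). The number of members with an unadjusted p under 0.05 was 1, or 5 with series as a term or in series 1 alone, and 0 to 6 with 1 library left out. The 6 were found without 8 h replicate 14, where 5183 of the 13870 genes tested had such a p. With series as a term, 9.06% of all genes did. Within series 1, or with series as a term, the sign turned for Fos (-0.52), Fosl1 (0.12), Jun (-0.16) and Junb (-0.27). Leaving out libraries gave fold changes of 0.11 to 0.89 for Fos, 0.018 to 0.28 for Jun, -0.35 to -0.021 for Dusp1, -1.06 to -0.47 for Fosl1, 0.31 to 1.12 for Junb, -0.74 to 0.14 for Jund, -1.18 to -0.84 for Atf3 and 0.74 to 1.57 for Egr1. Jund turned when 1 h replicate 2 (0.02) or 8 h replicate 14 (0.14) was left out.

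The series difference called 558 genes and 4 members, and 356 genes and 4 members in FPKM. Leaving out libraries gave 23 to 644 genes, 0 to 5 members, and differences of 1.25 to 1.57 for Fos, -1.20 to -1.17 for Fosl1, 1.18 to 1.61 for Junb, 1.02 to 1.76 for Jund and 1.25 to 1.67 for Egr1. Without 1 h replicate 1 or 2, Jund was called as well (1.39, adjusted p of 0.0262 and 0.0260). This difference cannot be fitted without 8 h replicate 14. In the counts, leaving out libraries gave -0.067 to 0.43 for Fos, -0.46 to 0.39 for Fosl1 and -1.02 to 0.21 for Atf3. Series by column name as a term gave 0.64 for Fosl1 and 0.75 for Atf3. The columns named for 8 h libraries do not match the tables of the same name. That term therefore does not follow the series of the TPM tables and cannot test them. The sign turned for Fos without the column named 8 h replicate 15 (-0.067), for Fosl1 without 1 h replicate 1 (0.15) or the column named 8 h replicate 15 (0.39), and for Atf3 without the columns named 8 h replicate 13 (0.0055) or 15 (0.21). For these the cause was not tested. Of 243 fold changes of members recomputed under an alternative, 212 kept their direction and their side of the threshold. Part of that number was fixed by the design. Dropping the trend changes no fold change, and the series difference at 8 h stays the same without a 1 h library. For the times, where no member was called at first, keeping the side means staying uncalled. The number is therefore no measure of how stable the results are.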
